A study of Mus musculus with 6 samples.

Results

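Foam-cell and macrophage-like state genes are genes of lipid uptake, cholesterol efflux and macrophage identity that vascular smooth muscle cells (VSMCs) can express. They were taken here as the rows whose symbol is *Lgals3*, *Cd68*, *Abca1*, *Abcg1*, *Apoe*, *Lrp1*, *Msr1*, *Scarb1*, *Npc1* or *Cd36*. All 10 were found among 18112 genes of the table, and 7 of the 10 averaged 0.5 FPKM or more over the libraries and were tested, FPKM being fragments counted for a gene relative to transcript length and library size. RNA of primary VSMCs from mouse aortas was sequenced in 3 libraries of *Smyd2* fl/fl cells (labels: Flox) and 3 libraries of *Smyd2* SMC-/- cells (labels: SMYD2 KO), all on the C57BL/6 strain, to ask how loss of the lysine methyltransferase SMYD2 alters gene expression in these cells. In the floxed allele LoxP sites lie on either side of exon 2, and the controls were littermates homozygous for that allele. Cre was driven by the SM22α (*Tagln*) promoter, so the deletion takes place in cells in which that promoter is or was active. The methods give mice of 8 to 10 weeks and cells at passage 4 starved overnight, whereas the labels give passage 6 and medium with 10% FBS, and neither gives another treatment of these cells. The labels do not say that the replicates came from separate animals or cultures, so p-values measure the spread between these libraries, which may be technical.

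In the artery wall, macrophages and VSMCs that take up modified lipoproteins store the cholesterol as ester droplets and become foam cells. Receptors such as LRP1, CD36, MSR1 and SR-BI (*Scarb1*) bring lipoprotein lipid to the cell, NPC1 moves free cholesterol out of the lysosome, and ABCA1 and ABCG1 pass it to apolipoproteins and HDL outside. VSMCs loaded with cholesterol can gain galectin-3 (*Lgals3*) and CD68, and these are used as markers of a macrophage-like state, although neither is restricted to macrophages.

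*Smyd2* (NCBI Gene 226830), the targeted gene, was listed at 7.87, 3.10 and 3.0 FPKM for replicates 1, 2 and 3 of the *Smyd2* fl/fl cells and at 1.67, 0.40 and 0.80 FPKM for those of the *Smyd2* SMC-/- cells. The highest *Smyd2* SMC-/- value was below the lowest *Smyd2* fl/fl value, as the labels require. The log2 fold change, here and throughout the difference of *Smyd2* SMC-/- minus *Smyd2* fl/fl in mean log2(FPKM + 1), was −1.48 (SE 0.389, limma adjusted p = 0.105, or 0.0189 with the replicate number as a block, which compares same-numbered libraries). Replicate 1 of both genotypes stood apart from replicates 2 and 3. The first principal component of all tested genes held 50.2% of the variance and separated replicate 1 from the others within each genotype. For this reason values with a replicate block are given where they change a call. Values from replicates 2 and 3 alone are given for genes described at length that were called there and neither without nor with the block.

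The efflux transporter *Abca1*, the lysosomal exporter *Npc1* and the HDL receptor *Scarb1* were higher in every *Smyd2* SMC-/- library than in any *Smyd2* fl/fl library. No other member had groups that did not overlap. *Lgals3* was higher and *Lrp1* lower in *Smyd2* SMC-/- cells in each same-numbered pair, but their groups overlapped. At an adjusted p under 0.05 in limma, 0 of the 7 tested members were called, against 2.44% of all 12565 tested genes, and 2 members (*Abca1* and *Npc1*) had an unadjusted p under 0.05. With the replicate block the same 2 members were called, both higher, against 10.4% of all tested genes in either direction and 4.72% called higher. In replicates 2 and 3 alone 4 members were called (*Abca1*, *Npc1*, *Scarb1* and *Apoe*), all higher, against 29.0% of all tested genes. At a fold change over 2 and an adjusted p under 0.01, the cutoffs of the methods, the members called numbered 0 without the block, against 0.422% of tested genes, and 1 (*Abca1*) with it, against 0.605%. Non-overlapping groups were seen for 3 of the 7 tested members, all of them higher in *Smyd2* SMC-/- cells, while over all tested genes this share was 13.1% for higher and 28.1% for either direction. Of 118 tested genes that the 14 other lists hold beside the members, 10 were called without the block and 24 with it. Between 1 and 18 were called without the block when 1 library was left out. In those fits between 16 and 373 of all tested genes were called higher and between 16 and 313 lower. The lists were chosen with earlier results of these data known. The median log2 fold change was 0.52 over the 7 tested members and −0.02 over all tested genes, and 0.47 and −0.06 in replicates 2 and 3 alone.

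Levels of the members spanned a wide range in both genotypes. In *Smyd2* fl/fl cells *Lrp1* had the highest mean, at 192 FPKM, and its lowest library was above every library of *Apoe* (mean 46.5 FPKM), the next gene in the order. *Apoe* and *Lgals3* (37.0 FPKM) overlapped, *Npc1* (22.95 FPKM) lay below all libraries of *Lgals3*, *Scarb1* (17.7 FPKM) lay below all of *Npc1*, and *Abca1* (6.03 FPKM) and *Cd68* (3.84 FPKM) overlapped. In *Smyd2* SMC-/- cells *Lrp1* was again highest in mean, at 155 FPKM, but its range overlapped that of *Apoe* (102 FPKM). *Scarb1* came next at 65.7 FPKM and overlapped both *Apoe* and *Lgals3* (45.2 FPKM), and *Npc1* (33.4 FPKM) lay below all libraries of *Lgals3*. *Npc1* overlapped *Abca1* (27.0 FPKM), and *Cd68* (3.87 FPKM) lay apart from both. In each genotype *Abcg1*, *Cd36* and *Msr1* stood at the end of the order, at no more than 0.26 FPKM in any library, with ranges that overlapped.

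**Figure D1:**
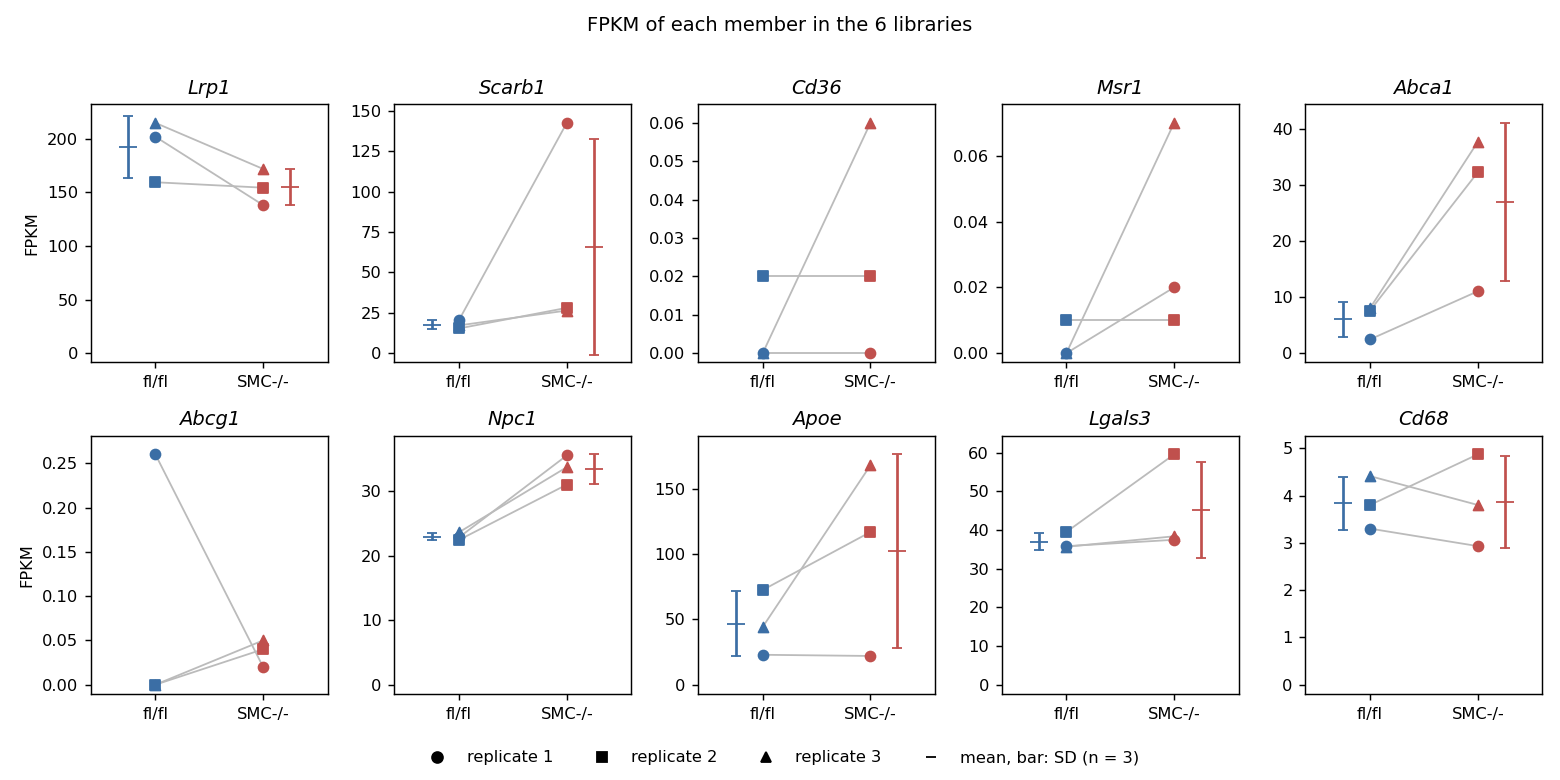
Levels of the 10 members (FPKM, vertical axis, a separate linear scale for each gene) in *Smyd2* fl/fl (fl/fl) and *Smyd2* SMC-/- (SMC-/-) libraries, with symbols for replicates 1, 2 and 3, grey lines between same-numbered libraries, and, for the 7 tested genes, the mean and SD (n = 3) beside the points. *Abca1*, *Npc1* and *Scarb1* are higher in every *Smyd2* SMC-/- library than in any *Smyd2* fl/fl library, and *Cd36*, *Msr1* and *Abcg1* stay at or under 0.26 FPKM.

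Among the uptake receptors, *Lrp1* (NCBI Gene 16971), a large endocytic receptor for apolipoprotein E remnants and protease complexes, was at 202, 159.5 and 215 FPKM in replicates 1, 2 and 3 of *Smyd2* fl/fl cells and at 138, 154 and 172 FPKM in those of *Smyd2* SMC-/- cells. The *Smyd2* SMC-/- library was the lower of each same-numbered pair, but the groups overlapped, because *Smyd2* fl/fl replicate 2 lay below *Smyd2* SMC-/- replicate 3. The means were 192 ± 29.0 and 155 ± 16.9 FPKM (SD, n = 3), a log2 fold change of −0.30 (SE 0.161, 95% interval −0.69 to 0.08, limma adjusted p = 0.350).

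*Scarb1* (NCBI Gene 20778) encodes SR-BI, which takes up cholesterol esters from HDL and exchanges free cholesterol with it. It was at 20.6, 15.3 and 17.2 FPKM in the *Smyd2* fl/fl replicates and at 143, 28.1 and 26.4 FPKM in the *Smyd2* SMC-/- replicates. The 3 *Smyd2* SMC-/- libraries exceeded the highest *Smyd2* fl/fl value (exact permutation test, two-sided, p = 0.1, below which 3 against 3 cannot go), and replicate 1 was far above its group. The ratio within same-numbered pairs was 6.94 for replicate 1, 1.83 for replicate 2 and 1.54 for replicate 3. This gave a log2 fold change of 1.39 (SE 0.626, 95% interval −0.11 to 2.89, limma adjusted p = 0.280). Without *Smyd2* SMC-/- replicate 1 it was 0.60 (limma adjusted p = 0.0864), and in replicates 2 and 3 alone it was 0.71 (adjusted p = 0.00281), with adjusted p from 0.00281 to 0.482 over all alternatives tried.

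The high value of *Scarb1* in *Smyd2* SMC-/- replicate 1 was shared by other genes of sterol and fatty acid handling in that library, picked out here after their values were seen. *Stard4*, a cytosolic sterol carrier, was at 58.6 FPKM there and at no more than 12.8 FPKM in the *Smyd2* fl/fl libraries. *Lpcat3*, *Lrp8* and *Fabp4* were, like *Stard4*, more than 2 times as high in that library as in any other. Such an excess was seen for 221 of 12565 tested genes (1.76%) in *Smyd2* SMC-/- replicate 1 and for 187 (1.49%) in *Smyd2* fl/fl replicate 1, and for between 8 and 28 genes in each of the other 4 libraries. The part of these differences in the value of *Scarb1* was not tested.

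The scavenger receptors *Cd36* (NCBI Gene 12491) and *Msr1* (NCBI Gene 20288), which bind oxidized and acetylated LDL on macrophages, were near 0. *Cd36* was at 0, 0.02 and 0 FPKM in the *Smyd2* fl/fl replicates and at 0, 0.02 and 0.06 FPKM in the *Smyd2* SMC-/- replicates. *Msr1* was at 0, 0.01 and 0 FPKM against 0.02, 0.01 and 0.07 FPKM. At the estimated depth of 17400000 to 19950000 fragments a library, these values stand for about 3 fragments or fewer in every library, and a difference between genotypes was not detectable for either gene at this depth.

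Other scavenger receptors were given by a list of 17 genes that includes *Cd36*, *Msr1*, *Scarb1* and *Cd68*. Of its 10 tested genes, 0 were called higher and 1 lower without the block, and 0 and 2 with it, and the median log2 fold change was 0.07. *Olr1*, which encodes the oxidized LDL receptor LOX-1, was at 21.0, 8.99 and 8.08 FPKM in the *Smyd2* fl/fl replicates and at 0.22, 1.40 and 0.42 FPKM in the *Smyd2* SMC-/- replicates. It was lower in every *Smyd2* SMC-/- library, with a log2 fold change of −2.97 (SE 0.413, limma adjusted p = 0.0232). *Cxcl16*, a transmembrane chemokine that also binds oxidized LDL, was at 9.17, 20.2 and 20.2 FPKM against 5.67, 8.98 and 7.97 FPKM, and was called in limma with the block (adjusted p = 0.0314) and not without it (0.168). The most abundant gene of the list, *Scara3*, ranged from 16.0 to 90.7 FPKM in *Smyd2* fl/fl and from 45.0 to 133 FPKM in *Smyd2* SMC-/- libraries. It was called in replicates 2 and 3 alone (limma adjusted p = 0.0264) and with a block for replicate 1 against the others (0.0339). It was not called without a block (0.567) or with the replicate block (0.0770).

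The LDL receptor family and its regulators held 16 tested genes of 18 listed, *Lrp1* being the most abundant, and *Lrp1b* had no row in the table. Without the block 1 was called higher and 1 lower, with it 2 and 1, and the median log2 fold change was 0.12, or −0.15 in replicates 2 and 3 alone. *Sort1*, a sorting receptor of the trans-Golgi network, was at 4.06, 3.83 and 3.90 FPKM in the *Smyd2* fl/fl replicates and at 15.9, 11.8 and 13.7 FPKM in the *Smyd2* SMC-/- replicates. The groups were widely separated, with a log2 fold change of 1.57 (SE 0.1504, limma adjusted p = 0.00727). *Lrp5*, known mainly as a Wnt co-receptor and not as a lipoprotein receptor, was at 39.1, 41.0 and 42.3 FPKM against 10.5, 16.5 and 16.9 FPKM, a log2 fold change of −1.45 (SE 0.194, limma adjusted p = 0.0208). *Lrpap1*, the chaperone of this receptor family, was at 9.26, 16.6 and 14.1 FPKM against 19.3, 35.1 and 34.3 FPKM, and was called with the block (limma adjusted p = 0.0134) and not without it (0.116). *Vldlr*, picked after its values were seen, was at 0.03, 0.20 and 0.22 FPKM against 0.63, 5.37 and 3.96 FPKM. Its log2 fold change of 1.70 was the largest of the list (limma adjusted p = 0.130, or 0.0504 with the block). In replicates 2 and 3 alone 4 genes of the list were called higher, *Vldlr* among them (limma adjusted p = 0.000125), and 3 lower.

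*Abca1* (NCBI Gene 11303), the transporter that loads cholesterol and phospholipid onto apolipoprotein A-I, was at 2.46, 7.60 and 8.03 FPKM in replicates 1, 2 and 3 of *Smyd2* fl/fl cells. In those of *Smyd2* SMC-/- cells it was at 11.04, 32.25 and 37.7 FPKM. The groups did not overlap (exact permutation test, two-sided, p = 0.1, the smallest possible), and within each genotype replicate 1 was well below replicates 2 and 3. The ratio within same-numbered pairs was therefore much alike, at 4.49, 4.24 and 4.69 for replicates 1, 2 and 3, while the means of 6.03 ± 3.10 and 27.0 ± 14.1 FPKM (SD, n = 3) had large errors. The log2 fold change was 1.95, with SE 0.553 and limma adjusted p = 0.123 without the block and SE 0.113 and adjusted p = 0.00427 with it. Among the members this was the largest log2 fold change with all 6 libraries, but not without *Smyd2* SMC-/- replicate 2 (1.74 against 1.76 for *Scarb1*) or replicate 3 (1.63 against 1.80). In replicates 2 and 3 alone it was 2.02 (SE 0.114, limma adjusted p = 3.58e-05), and over all alternatives tried it ran from 1.50 to 2.47 with adjusted p up to 0.355.

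The sequence before the transcription start of *Abca1* is given here because the gene was called with the replicate block and belongs to the targets of the liver X receptors (LXRs), which bind as heterodimers with RXR to direct repeats spaced by 4 bases. The 250 bases upstream of the start are on the minus strand at chr4:53159896-53160145 of build GRCm38.p6 in RefSeq, and capitals mark matches to any of 4 motifs.
Abca1: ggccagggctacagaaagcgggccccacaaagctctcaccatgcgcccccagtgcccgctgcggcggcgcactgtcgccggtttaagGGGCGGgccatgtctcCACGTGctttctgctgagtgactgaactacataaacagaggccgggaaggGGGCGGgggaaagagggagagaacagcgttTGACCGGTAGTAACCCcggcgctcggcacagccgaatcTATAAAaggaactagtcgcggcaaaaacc
Motifs were searched on both strands, with N for any base. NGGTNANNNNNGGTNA is a loose form of a direct repeat spaced by 4 bases, and was chosen with this promoter in view. The E box was searched as CACGTG. The GC box was searched as GGGCGG. The TATA box was searched as TATAAA. The direct repeat matched once on the strand opposite to the gene, from 67 to 52 bases before the start, where it overlapped no other match. The E box, which reads alike on both strands, matched at 147 to 142 bases before the start, the GC box at 163 to 158 and at 97 to 92, and the TATA box at 29 to 24, all on the strand of the gene and without overlap. The share of 32851 promoters of the same length with a match was 0.621% for the direct repeat, 6.02% for the E box, 32.7% for the GC box and 12.4% for the TATA box. Of the 6 members with a promoter entry (*Abca1*, *Apoe*, *Cd36*, *Cd68*, *Lgals3* and *Lrp1*), *Abca1* was the one with the direct repeat and the one with the E box. *Abcg1*, *Msr1*, *Npc1* and *Scarb1* had no entry. A match says that these letters are present, not that a factor binds them.

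*Abcg1* (NCBI Gene 11307), which passes cholesterol on to HDL, was at 0.26 FPKM in *Smyd2* fl/fl replicate 1, at 0 in replicates 2 and 3, and at 0.02, 0.04 and 0.05 FPKM in the *Smyd2* SMC-/- replicates. Its highest value stands for about 28 fragments and the next for about 6, so the gene was read mainly in 1 library and was not tested.

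Of the ABC transporters of subfamilies A and G, 8 of 18 listed genes were tested, and *Abcg3* had no row. Without the block 1 was called higher and 1 lower, with it 2 and 1, and the median log2 fold change was 0.36. *Abca2*, a transporter of endosomes and lysosomes, was at 8.94, 9.85 and 11.3 FPKM in the *Smyd2* fl/fl replicates and at 20.9, 18.8 and 20.0 FPKM in the *Smyd2* SMC-/- replicates, a log2 fold change of 0.93 (SE 0.135, limma adjusted p = 0.0257). The xenobiotic efflux pump *Abcg2* was at 8.28, 17.9 and 18.9 FPKM against 3.20, 3.99 and 3.23 FPKM, a log2 fold change of −1.76 (SE 0.307, limma adjusted p = 0.0438). Both had groups that did not overlap. *Abca3*, of the highest mean of the list over all libraries, ranged from 14.3 to 20.95 FPKM in *Smyd2* fl/fl and from 19.2 to 25.1 FPKM in *Smyd2* SMC-/- libraries (log2 fold change 0.30, 95% interval −0.14 to 0.74). In *Smyd2* SMC-/- cells alone *Abca1* had the higher mean (27.0 against 22.5 FPKM).

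The LXR receptors and targets, a list of 19 genes with *Abca1*, *Abcg1* and *Apoe* among them, had 15 tested genes, and *Rxrg* had no row. Limma called 0 of them without the block (5 at an unadjusted p under 0.05) and 2 higher and 2 lower with it, and the median log2 fold change was 0.07, or −0.21 in replicates 2 and 3 alone. Besides *Abca1*, the small GTPase gene *Arl4c* was higher with the block, at 6.26, 8.24 and 7.98 FPKM against 11.6, 12.3 and 12.9 FPKM (log2 fold change 0.65, limma adjusted p = 0.0757 without the block and 0.0366 with it). The receptor gene *Nr1h3*, which encodes LXRα, was at 10.5, 7.72 and 6.89 FPKM against 5.88, 2.93 and 4.07 FPKM, lower in every *Smyd2* SMC-/- library (log2 fold change −0.84, adjusted p = 0.137 and 0.0384). *Smpdl3a*, a secreted phosphodiesterase, was also lower, at 1.07, 2.11 and 2.07 FPKM against 0.20, 0.86 and 0.85 FPKM (log2 fold change −0.75, adjusted p = 0.188 and 0.0407). So the genes of the list called with the block went in both directions. The most abundant, the desaturase gene *Scd2*, was at 166, 237 and 271 FPKM against 516, 245 and 173 FPKM, with replicate 1 of *Smyd2* SMC-/- above all others.

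*Npc1* (NCBI Gene 18145), which moves cholesterol out of late endosomes and lysosomes, was at 22.8, 22.4 and 23.6 FPKM in the *Smyd2* fl/fl replicates and at 35.5, 31.0 and 33.7 FPKM in the *Smyd2* SMC-/- replicates. The libraries of each genotype were close to one another and the groups were well apart (exact permutation test, two-sided, p = 0.1, the smallest possible). The means were 22.95 ± 0.606 and 33.4 ± 2.27 FPKM (SD, n = 3), and the ratio within same-numbered pairs was 1.56, 1.38 and 1.43. Limma gave a log2 fold change of 0.52 (SE 0.113, 95% interval 0.25 to 0.79), the smallest p among the members without the block (with it that of *Abca1* was smaller), with limma adjusted p = 0.0690 without the block and 0.0386 with it. It stayed between 0.47 and 0.65 under all alternatives tried, while adjusted p ran from 0.0119 to 0.270 and was 0.0483 after quantile normalization.

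Lysosomal sterol export and sterol ester storage had 19 tested genes of 21 listed, and *Plin2* was given in 2 rows, of which 1 was tested. Without the block 0 were called higher and 1 lower, with it 1 (*Npc1*) and 2, and the median log2 fold change was 0.13, or −0.16 in replicates 2 and 3 alone. *Plin2* (NCBI Gene 11520), a coat protein of lipid droplets, was at 42.2, 48.4 and 42.8 FPKM in the *Smyd2* fl/fl replicates and at 21.4, 22.9 and 23.2 FPKM in the *Smyd2* SMC-/- replicates. It was lower in every *Smyd2* SMC-/- library, with a log2 fold change of −0.95 (SE 0.116, limma adjusted p = 0.0151). Reads may be shared with the other row of that symbol, which was at no more than 0.32 FPKM, so the level is uncertain to that extent. *Lipe*, the hormone-sensitive lipase that also cleaves cholesterol esters, was at 8.56, 5.60 and 5.14 FPKM against 5.46, 2.21 and 2.66 FPKM, and was called lower with the block (limma adjusted p = 0.0418) and not without it (0.231). The lysosomal membrane gene *Lamp1*, the most abundant, was at 486, 531 and 537 FPKM against 559.8, 647 and 604 FPKM (log2 fold change 0.22, 95% interval −0.07 to 0.51).

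*Apoe* (NCBI Gene 11816), the apolipoprotein that macrophages and VSMCs secrete and that accepts effluxed cholesterol, was at 22.9, 72.4 and 44.2 FPKM in the *Smyd2* fl/fl replicates and at 21.98, 117 and 168 FPKM in the *Smyd2* SMC-/- replicates. Replicate 1 was at the same level in both genotypes and the lowest of each, and the groups overlapped. The ratio within same-numbered pairs was 0.960, 1.61 and 3.80 for replicates 1, 2 and 3. The log2 fold change was 0.84 (SE 0.788, 95% interval −1.05 to 2.73, limma adjusted p = 0.619), and it was 1.29 (SE 0.288, adjusted p = 0.0281) in replicates 2 and 3 alone. Over all alternatives tried it ran from 0.28 (without *Smyd2* SMC-/- replicate 3) to 1.72 (without *Smyd2* SMC-/- replicate 1), with adjusted p from 0.0281 to 0.932.

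The 14 apolipoproteins had 9 tested genes. Limma called 0 of them without the block (2 at an unadjusted p under 0.05) and 1 higher and 1 lower with it, and the median log2 fold change was 0.74. *Clu*, which encodes clusterin (apolipoprotein J) and was the most abundant, was at 11.2, 139 and 96.0 FPKM in the *Smyd2* fl/fl replicates and at 101, 598 and 809.5 FPKM in the *Smyd2* SMC-/- replicates. It was higher in each same-numbered pair although the groups overlapped, as *Smyd2* SMC-/- replicate 1 lay below *Smyd2* fl/fl replicate 2 (log2 fold change 2.74, limma adjusted p = 0.240, or 0.010 with the block). *Apod*, a small lipid carrier, was at 1.30, 14.8 and 14.8 FPKM against 0.44, 5.38 and 4.47 FPKM (log2 fold change −1.17, limma adjusted p = 0.540, or 0.0359 with the block). As with *Abca1* and *Apoe*, replicate 1 of each genotype was the lowest for both genes.

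**Figure D2:**
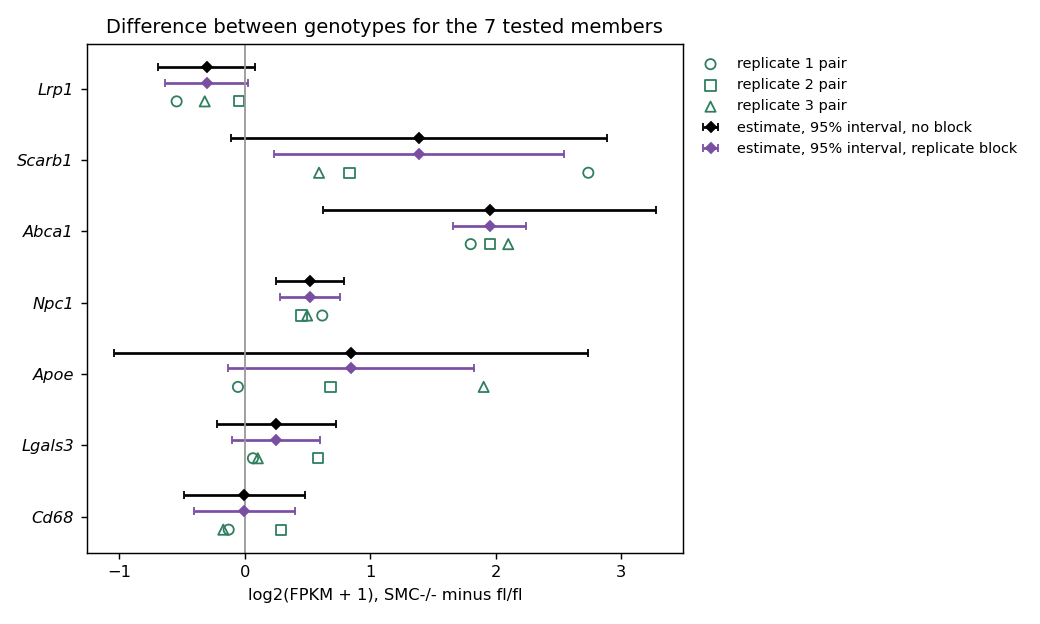
Difference of *Smyd2* SMC-/- minus *Smyd2* fl/fl in log2(FPKM + 1) for the 7 tested members, with limma's estimate and 95% interval without (black) and with (purple) the replicate block, and open green symbols for the same-numbered pairs. The pairs of *Abca1* lie between 1.80 and 2.10 and those of *Npc1* between 0.45 and 0.62, whereas those of *Scarb1* and *Apoe* are spread widely.

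*Lgals3* (NCBI Gene 16854), the gene of galectin-3, was at 35.8, 39.5 and 35.7 FPKM in the *Smyd2* fl/fl replicates and at 37.5, 59.6 and 38.4 FPKM in the *Smyd2* SMC-/- replicates. Replicate 2 was the highest library of each genotype, the *Smyd2* SMC-/- library was the higher of each pair, and the groups overlapped. The means were 37.0 ± 2.17 and 45.2 ± 12.5 FPKM (SD, n = 3), and the log2 fold change was 0.25 (SE 0.198, 95% interval −0.23 to 0.72, limma adjusted p = 0.551), falling to 0.036 without *Smyd2* SMC-/- replicate 2. A list of 9 genes holds galectins and *Lgals3bp*, whose product binds galectin-3 and is not a galectin. Of these, 7 were tested, *Lgals12* had no row, and 0 were called in limma without the block (0 at an unadjusted p under 0.05) or with it (1 at an unadjusted p under 0.05). Their median log2 fold change was −0.29, or −0.19 over 6 galectins without *Lgals3bp*. *Lgals1*, the most abundant, was at 1914, 1612 and 1439 FPKM against 1383, 1334 and 1002 FPKM, lower in every *Smyd2* SMC-/- library than in any *Smyd2* fl/fl library and not called (log2 fold change −0.42, 95% interval −0.86 to 0.02, limma adjusted p = 0.262).

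*Cd68* (NCBI Gene 12514), a glycoprotein of late endosomes that is abundant in macrophages, was at 3.30, 3.80 and 4.41 FPKM in the *Smyd2* fl/fl replicates and at 2.93, 4.87 and 3.80 FPKM in the *Smyd2* SMC-/- replicates. The groups lay over one another, and the *Smyd2* SMC-/- library was the higher in 1 pair of 3. The log2 fold change was −0.00402 (SE 0.202, limma adjusted p = 0.995), and its 95% interval of −0.49 to 0.48 includes sizable differences in both directions. Its sign turned under 4 of 13 alternatives.

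Of the 9 markers of modulated smooth muscle, which include *Lgals3*, all were tested. Without the block 1 was called higher and 0 lower, with it 3 and 1, and the median log2 fold change was 1.21. *Tnfrsf11b*, the gene of osteoprotegerin, was at 4.77, 11.6 and 10.1 FPKM in the *Smyd2* fl/fl replicates and at 29.6, 67.6 and 67.2 FPKM in the *Smyd2* SMC-/- replicates, with no overlap (log2 fold change 2.49, limma adjusted p = 0.0409). *Spp1*, the gene of osteopontin, was at 136, 12.6 and 9.35 FPKM against 352, 31.4 and 24.8 FPKM, high in replicate 1 of both genotypes, and was called with the block (limma adjusted p = 0.00662) and not without it (0.649). Fibronectin (*Fn1*), the most abundant, was at 431, 1418 and 1809 FPKM against 858, 3392 and 2540.4 FPKM, also higher in each pair (adjusted p = 0.532, or 0.0411 with the block). *Ly6a*, which encodes the stem cell antigen Sca-1, went the other way, at 52.6, 378 and 327 FPKM against 36.4, 141 and 130.1 FPKM (adjusted p = 0.552, or 0.0404 with the block).

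Apoptotic cell uptake, with *Lrp1* among its 16 genes, all tested, had 0 called in limma without the block (2 at an unadjusted p under 0.05), 0 higher and 2 lower with it, and a median log2 fold change of −0.04. *Mertk*, a receptor kinase for apoptotic cells and also listed among the macrophage markers, was at 3.25, 1.84 and 2.10 FPKM against 0.52, 0.79 and 0.67 FPKM (log2 fold change −1.01, limma adjusted p = 0.0615, or 0.0468 with the block). *Cd47*, the signal that keeps cells from being engulfed, was at 18.9, 42.3 and 45.6 FPKM against 13.4, 22.9 and 25.6 FPKM (limma adjusted p = 0.362, or 0.0327 with the block). Calreticulin (*Calr*), the most abundant, ranged from 559.6 to 592 FPKM in *Smyd2* fl/fl and from 449 to 752 FPKM in *Smyd2* SMC-/- libraries.

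**Figure D3:**
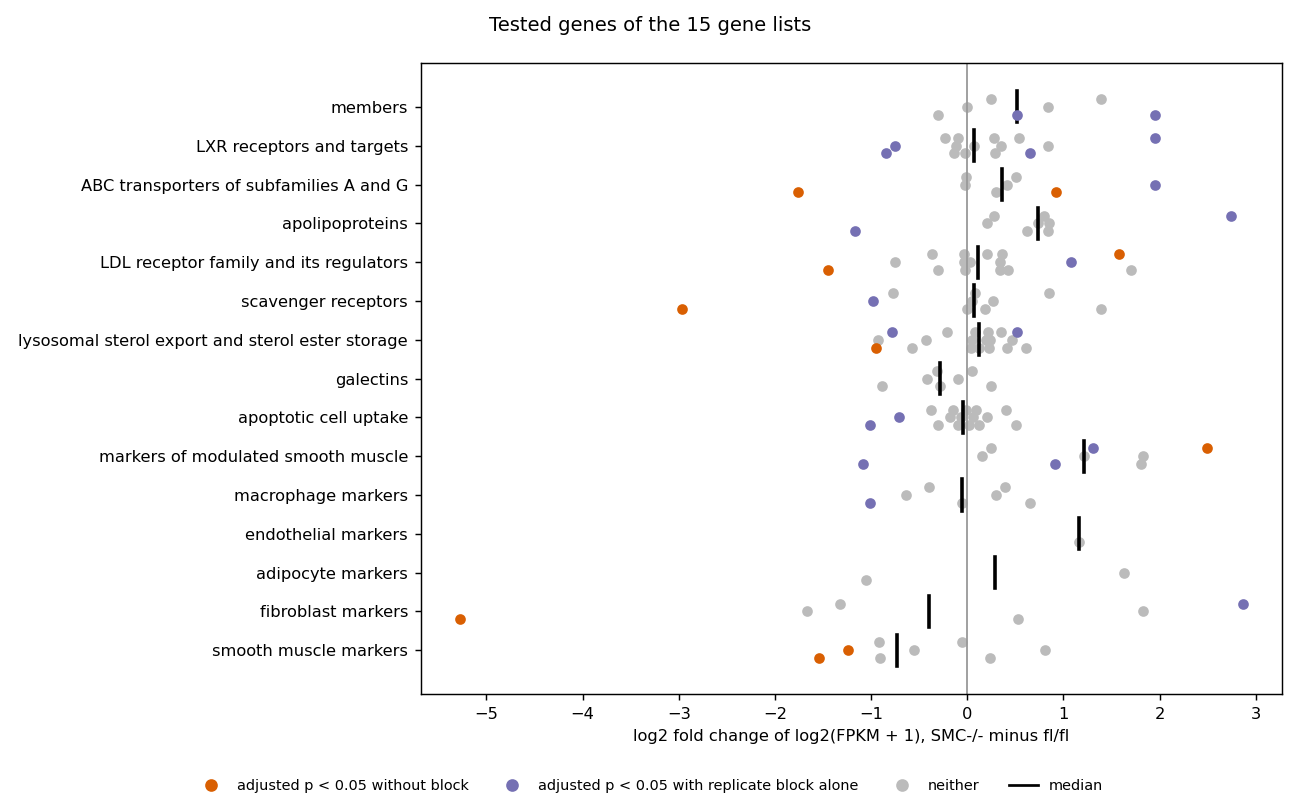
Log2 fold change of each tested gene of the 15 gene lists (horizontal axis, difference of *Smyd2* SMC-/- minus *Smyd2* fl/fl in log2(FPKM + 1)), coloured by whether limma's adjusted p was under 0.05 without the block (orange), with the replicate block alone (purple) or in neither (grey), with the list's median as a black line; genes in several lists appear in each. Called genes lie on both sides of 0, and *Dpt* is the point farthest to the left at −5.28.

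Macrophage markers were then examined, since the members are read as signs of a macrophage-like state. By the methods, fat and lymph nodes around the thoracic aorta, the endothelium and the adventitia were taken off before the media was digested, and staining for SM α-actin put the share of VSMCs above 95% in each batch of cells. Of the 20 markers *Cx3cr1* had no row, and 12 of the 19 present averaged below 0.5 FPKM. *Ptprc* (CD45), *Adgre1* (F4/80), *Itgam* (CD11b) and *Fcgr1*, markers of leukocytes, myeloid cells or macrophages, were at no more than 0.02 FPKM in any library, and *Tyrobp*, *Aif1*, *Spi1*, *Mrc1*, *Laptm5* and the complement genes *C1qa*, *C1qb* and *C1qc* at no more than 0.37 FPKM. The most abundant was *Cd14*, a lipopolysaccharide co-receptor that smooth muscle cells also express, at 37.7, 21.9 and 17.7 FPKM against 35.3, 10.6 and 16.1 FPKM. Summed over the list, levels were 44.95, 30.7 and 26.7 FPKM in the *Smyd2* fl/fl replicates and 41.9, 17.6 and 23.5 FPKM in the *Smyd2* SMC-/- replicates, of which *Cd14* made up the greater part. Of 7 tested markers, limma called 0 without the block (2 at an unadjusted p under 0.05) and 1 (*Mertk*, lower) with it, and the median log2 fold change was −0.05. *Csf1r*, the receptor of macrophage colony-stimulating factor, picked after its values were seen, was at 0.58, 0.53 and 0.48 FPKM against 1.66, 1.42 and 1.14 FPKM, higher in every *Smyd2* SMC-/- library (log2 fold change 0.65, limma adjusted p = 0.102, or 0.0565 with the block). In replicates 2 and 3 alone 1 marker was called higher, *Csf1r* (limma adjusted p = 0.0192), and 2 were called lower. Those lower were *Mertk* (adjusted p = 0.00683) and *Lyz2* (0.00294). *Lyz2*, also picked after its values were seen, was at 1.04, 3.78 and 4.04 FPKM against 1.01, 1.41 and 1.69 FPKM. Of the 19 markers 5 were highest in *Smyd2* SMC-/- replicate 3 (*C1qa*, *C1qb*, *C1qc*, *Tyrobp* and *Itgam*, at 0.37 FPKM or less). The members *Abca1*, *Apoe*, *Cd36* and *Msr1* were also highest in that library. *Smyd2* fl/fl replicate 1 was highest for 6 (*Mertk*, *Cd14*, *Fcer1g*, *Aif1*, *Spi1* and *Laptm5*), *Smyd2* fl/fl replicate 3 for *Lyz2*, *Smyd2* SMC-/- replicate 1 for *Csf1r* and *Itgb2*, and *Smyd2* SMC-/- replicate 2 for *Cybb*, while 4 were tied. Among the remaining members, *Abcg1* was highest in *Smyd2* fl/fl replicate 1 and *Lrp1* in *Smyd2* fl/fl replicate 3. *Scarb1* and *Npc1* were highest in *Smyd2* SMC-/- replicate 1, and *Lgals3* and *Cd68* in *Smyd2* SMC-/- replicate 2. The part of these macrophage markers in the values of the members was not tested, and the members are described here as genes and not as a cell state.

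**Figure D4:**
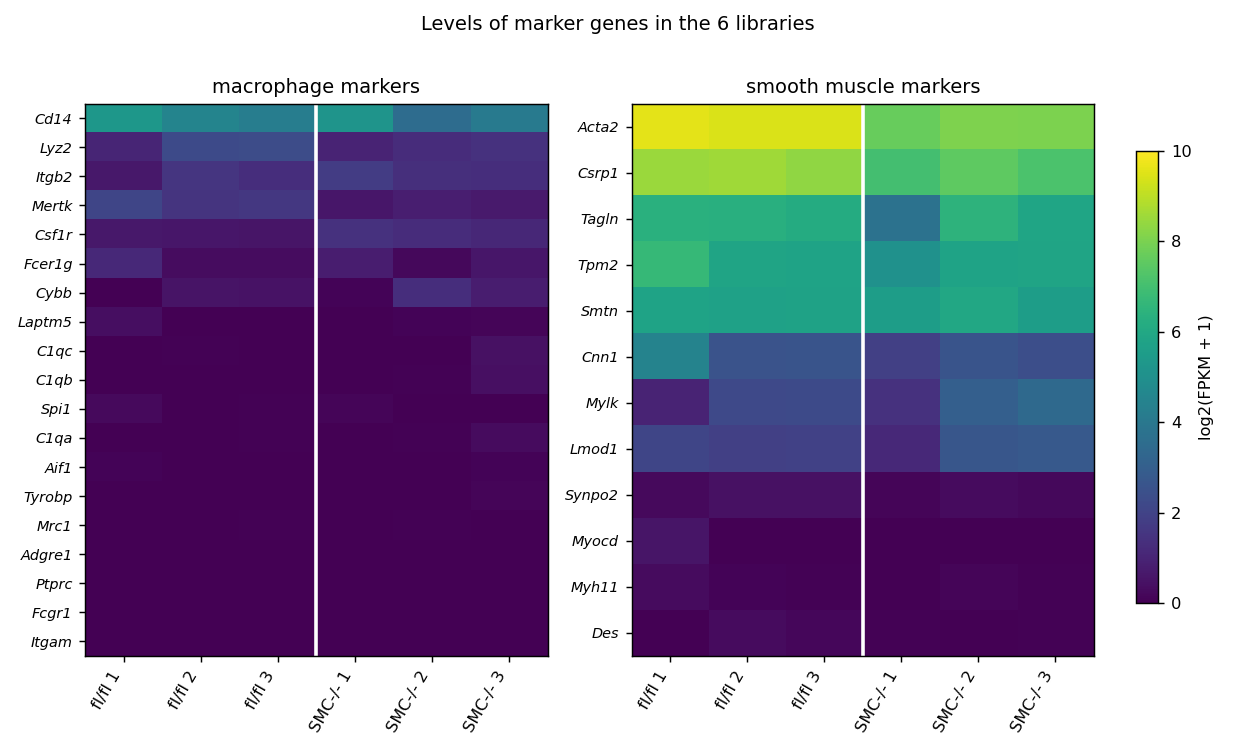
Levels of macrophage markers (left) and smooth muscle markers (right) as log2(FPKM + 1), shown by colour, in the 3 *Smyd2* fl/fl (fl/fl) and 3 *Smyd2* SMC-/- (SMC-/-) libraries, with genes ordered by mean level. Most macrophage markers are under 0.5 FPKM in all 6 libraries, and *Acta2* and *Csrp1* are lower in the *Smyd2* SMC-/- libraries.

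Some smooth muscle markers were present at high levels, with *Acta2* (smooth muscle α-actin) the most abundant. Others were low, and *Myh11*, *Myocd*, *Synpo2* and *Des* had means below 0.5 FPKM and were not tested. *Myocd* was at 0.48 FPKM in *Smyd2* fl/fl replicate 1 and at no more than 0.02 FPKM elsewhere. *Myh11* was at 0.22, 0.08 and 0.03 FPKM against 0.01, 0.09 and 0.04 FPKM, *Synpo2* at 0.20, 0.38 and 0.35 FPKM against 0.10, 0.23 and 0.17 FPKM, and *Des* at no more than 0.22 FPKM. Of 12 markers 8 were tested, 0 were called higher and 2 lower with or without the block, and the median log2 fold change was −0.73. In replicates 2 and 3 alone 2 were called higher and 2 lower, and the median was −0.04. Those called higher there, picked after their values were seen, were *Mylk*, at 1.02, 3.62 and 3.75 FPKM against 1.72, 7.14 and 9.68 FPKM, and *Lmod1*, at 3.28, 2.71 and 2.83 FPKM against 1.22, 5.44 and 6.02 FPKM (adjusted p = 0.00335 for each). *Mylk* was higher in each same-numbered pair (limma adjusted p = 0.505, or 0.0578 with the block). *Acta2* was at 761, 682 and 683 FPKM against 201, 268 and 262 FPKM (log2 fold change −1.55, SE 0.153, limma adjusted p = 0.00803). *Csrp1*, a LIM protein of the actin cytoskeleton, was at 362, 376 and 325 FPKM against 127, 180.2 and 144 FPKM (log2 fold change −1.24, SE 0.162, limma adjusted p = 0.0183). Levels summed over the list were 1389, 1258 and 1198 FPKM in the *Smyd2* fl/fl replicates and 425, 672 and 586 FPKM in the *Smyd2* SMC-/- replicates. *Acta2* and *Csrp1* made up the greater part, and without them the ratio of sums, *Smyd2* SMC-/- over *Smyd2* fl/fl, was 0.365, 1.12 and 0.944 in pairs 1, 2 and 3. *Tagln* was at 80.5, 79.1 and 70.3 FPKM against 12.5, 87.3 and 57.1 FPKM and *Cnn1* at 21.03, 4.86 and 5.11 FPKM against 2.70, 5.07 and 4.32 FPKM, both picked after their values were seen. In RNA of bulk cultures, fewer cells of a type and less RNA per cell cannot be told apart, and the part of these markers in the values of the members was not tested.

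Fibroblast markers, 6 of 7 tested, had 0 called higher and 1 lower without the block and 1 and 1 with it, and a median log2 fold change of −0.40. In replicates 2 and 3 alone 2 were called higher and 3 lower, and the median was −0.63. *Dpt* (dermatopontin) was at 144, 90.3 and 65.5 FPKM in the *Smyd2* fl/fl replicates and at 3.31, 1.15 and 0.63 FPKM in the *Smyd2* SMC-/- replicates (log2 fold change −5.28, SE 0.427, limma adjusted p = 0.00417). *Col14a1* was at 6.49, 24.7 and 26.8 FPKM against 64.8, 160.1 and 197 FPKM (log2 fold change 2.87, limma adjusted p = 0.0683, or 0.00320 with the block). These genes went in opposite directions, and *Dcn*, the most abundant, was at 13.9, 311 and 257 FPKM against 25.6, 383 and 350.4 FPKM and was not called without or with the replicate block, while *Dpp4* was at no more than 0.14 FPKM. Summed over the list, levels were 184, 467 and 388 FPKM against 106, 566.6 and 566.5 FPKM. Endothelial markers summed to no more than 5.84 FPKM in any library, with *Cdh5* and *Tie1* at no more than 0.01 FPKM. *Kdr* had the highest mean over all libraries, but in *Smyd2* fl/fl cells alone that of *Pecam1* was higher (0.787 against 0.63 FPKM). The single tested endothelial marker, *Kdr*, was at 0.47, 0.58 and 0.84 FPKM against 0.96, 5.15 and 2.96 FPKM, and *Cldn5* had no row. *Kdr* was called in replicates 2 and 3 alone (limma adjusted p = 0.00260) and with a block for replicate 1 against the others (0.0349). It was not called without a block (0.186) or with the replicate block (0.0770). Some other endothelial markers, picked after their values were seen, had lower means in *Smyd2* SMC-/- cells. *Pecam1* was at 0.56, 0.88 and 0.92 FPKM against 0.12, 0.18 and 0 FPKM without overlap, *Egfl7* at 0.29, 0.82 and 0.55 FPKM against 0.69, 0.23 and 0.05 FPKM, and *Vwf* at 0.22, 0.13 and 0.11 FPKM against 0.16, 0.04 and 0.01 FPKM, all averaging under 0.5 FPKM and not tested. Adipocyte markers summed to 10.8, 13.0 and 9.99 FPKM against 122, 7.50 and 7.95 FPKM, with *Fabp4* at 119 FPKM in *Smyd2* SMC-/- replicate 1, where *Scarb1* was also high. *Adipoq*, *Plin1* and *Cidec* were at no more than 0.09 FPKM in any library, *Lep* had no row, and 0 of 2 tested adipocyte markers were called in limma with or without the block (1 at an unadjusted p under 0.05 in each, median log2 fold change 0.29, or −0.54 in replicates 2 and 3 alone). The other tested one, *Pparg*, picked after its values were seen, was at 4.50, 8.0 and 6.87 FPKM against 3.84, 2.11 and 1.88 FPKM, lower in every *Smyd2* SMC-/- library (log2 fold change −1.06, limma adjusted p = 0.107, or 0.0865 with the block), and called in replicates 2 and 3 alone (log2 fold change −1.49, adjusted p = 0.000344).

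The genes most like *Lrp1*, the member with the highest mean, were *Bcorl1*, *Gatad2b* and *Rogdi*, with Pearson's r of 0.985, 0.980 and 0.977 in log2(FPKM + 1) over the 6 libraries, among 8763 other tested genes that averaged 5 FPKM or more. *Bcorl1* was at 9.65, 7.38 and 9.79 FPKM in the *Smyd2* fl/fl replicates and at 6.33, 7.43 and 7.65 FPKM in the *Smyd2* SMC-/- replicates. As for *Lrp1*, replicate 2 was the lowest of the *Smyd2* fl/fl libraries and replicate 1 the lowest of the *Smyd2* SMC-/- libraries. Genes most like *Npc1*, the member with the smallest p without the block, included *Acox3* (a peroxisomal acyl-CoA oxidase) and *Atxn3* (a deubiquitinase), with r of 0.996 and 0.995. *Acox3* was at 10.9, 10.4 and 11.2 FPKM against 16.6, 15.1 and 16.3 FPKM, with the same order of libraries as *Npc1*. Over the 6 libraries r was above 0.9 with 22 of the 8763 genes for *Lrp1* and with 327 for *Npc1*. The libraries share genotype and replicate number, so these are descriptions.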

How the data were processed

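RNA of 3 *Smyd2* fl/fl and 3 *Smyd2* SMC-/- VSMC libraries was sequenced. Reads were cleaned with SOAPnuke, aligned with HISAT and Bowtie2 and quantified with RSEM by the authors, who deposited FPKM values to 2 decimals. Bowtie2 and RSEM are also named in the submitters' processing notes. Tool versions and genome build are not given in the sources used here. Libraries were assigned to genotype and replicate by their labels.

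Log2(FPKM + 1) of the 12565 genes averaging 0.5 FPKM or more was compared between genotypes with limma 3.58.1 in R 4.3.3 (lmFit, and eBayes with its trend and robust options), and p was adjusted over all of them by Benjamini-Hochberg. Genes were called at an adjusted p under 0.05. On this scale, changes of genes of low FPKM come out too small. Intervals are limma's 95% intervals, not adjusted for the number of genes. Single genes were also compared by two-sided exact permutation tests.

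Groups share replicate numbers in the labels. Deviations from the group means correlated over genes by 0.61, 0.46 and 0.53 between same-numbered libraries of replicates 1, 2 and 3, so the numbers were taken to pair the libraries, and the comparison was also fitted with replicate number as a blocking term (the replicate block). Replicates 2 and 3 of different genotypes correlated by 0.46 and 0.44, so the pairing rests mainly on replicate 1 against the others.

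Members and gene lists were chosen with earlier results of these data known. Genes named are the members, *Smyd2*, list genes called without or with the block, the most abundant gene of each list (by its mean over all libraries), and, for the member of highest mean and that of smallest p without the block, the 3 genes of highest correlation. A gene that meets this rule is left out here. Others are said to be picked after their values were seen, or stand for markers at or near 0.

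Depth was estimated, with numpy 2.4.6, from the steps of low FPKM values, using transcript lengths of GENCODE M21 less 75 bases. It was 18650000, 19950000 and 19700000 fragments in replicates 1, 2 and 3 of *Smyd2* fl/fl, and 17400000, 19400000 and 19200000 in those of *Smyd2* SMC-/-. These are approximate, with 69.7% to 72.7% of low values within 0.15 of a whole fragment, where 30% would be by chance. Alternatives were a pseudocount of 0.1, no filter, the replicate block, a block for replicate 1 against the others, replicates 2 and 3 alone, each library left out, rescaling to a sum of 1000000 (TPM), and quantile normalization. Promoter sequences came from RefSeq. Python 3.11.15, pandas 2.3.3, scipy 1.17.1 and matplotlib 3.10.9 were used. The fits and the depth estimate were tested on simulated data.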

Additional observations from a re-analysis of the deposited data

How the results depend on the processing

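Without the block, 154 genes were higher and 152 lower at an adjusted p under 0.05 in limma, 27 and 26 at the cutoffs of the methods, and 0 members and 10 of 118 tested genes of the other lists were called. With the replicate block these became 593 and 719, 48 and 28, 2 members and 24 list genes. With a block for replicate 1 against the others they were 1152 and 1398, 216 and 158, 2 and 43, and in replicates 2 and 3 alone 1494 and 2156, 357 and 295, 4 and 55. Without a filter on low FPKM 139 and 108 genes were called, or 10 and 10 at the cutoffs of the methods. Rescaling to a sum of 1000000 gave 247 higher and 99 lower (71.4% higher against 50.3%), with 39 and 23 at the cutoffs of the methods, and shifted the median of log2 fold changes over the tested genes by 0.11. Quantile normalization called 1 member (*Npc1*). A pseudocount of 0.1 left every count within 1.5 times. The cause of these changes was not tested.

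Leaving out 1 library at a time gave between 16 and 373 genes higher and between 16 and 313 lower, 3 to 68 and 1 to 39 at the cutoffs of the methods, 0 to 1 members and 1 to 18 other list genes. The highest counts came without *Smyd2* SMC-/- replicate 1, when *Abca1* was called (adjusted p = 0.0421). Counts without *Smyd2* fl/fl replicate 2 (18 and 16) or 3 (16 and 20), or *Smyd2* SMC-/- replicate 2 (27 and 28) or 3 (18 and 21), were far lower, with 1, 1, 4 and 1 other list genes called in that order, and 121 and 156 genes were called without *Smyd2* fl/fl replicate 1.

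Each tested member other than *Cd68* kept its direction under all 13 alternatives. *Cd68* had a log2 fold change of 0.11 after rescaling and 0.059 in replicates 2 and 3 alone, and from −0.15 (without *Smyd2* SMC-/- replicate 2) to 0.14 (without *Smyd2* SMC-/- replicate 1) with 1 library left out, none of them called. After rescaling *Abca1* was at 2.19, *Npc1* at 0.65 and *Lrp1* at −0.18. The replicate block changed the call of no member beyond *Abca1* and *Npc1*. At these depths 1 fragment on a transcript of 2000 bases is worth 0.026 to 0.0299 FPKM, which limits *Cd36*, *Msr1* and *Abcg1*.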
